A study of Mus musculus with 11 samples.

Results

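Tumors grown from E0771 cells that carried hairpin shPC28 (n = 4) were compared with tumors grown from cells that carried hairpin shPC25 (n = 3). Both hairpins are lentiviral shRNAs against Pcx, the mouse gene of pyruvate carboxylase. The 7 tumors were taken by their labels from a series of 11, and the 4 tumors of the scrambled control (scram) were left out of the main comparison. E0771 is a mammary carcinoma line of C57BL/6 mice. In both groups 500000 transduced cells were placed in mammary fat pad 4 of untreated C57BL6J mice, the study kept its E0771 mice on a single diet, and the titles of all tumors carry LFD, which is not spelled out. Each hairpin was delivered in the pLKO.1 vector and the cells were selected with puromycin, and tumors with the same hairpin are replicates of the mouse, not of the transduction. The comparison asks which transcripts depend on the hairpin that was used against the same target.

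Pyruvate carboxylase turns pyruvate into oxaloacetate in mitochondria and so refills the TCA cycle, while pyruvate that is not used there can leave the cell as lactate. A short hairpin RNA is processed into a small guide RNA that lowers its target transcript and can also act on other transcripts with a partial match. A difference between tumors of separate hairpins against 1 gene can therefore come from knockdown strength, other targets of a hairpin, the cell pools or the hosts, and these cannot be told apart in this design. RNA came from whole tumors, in which a lower signal of a cell type's genes can reflect fewer such cells or less RNA per cell, and these cannot be told apart either.

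No transcript separated the hairpins at the threshold used, an adjusted p of 0.05 in limma with Benjamini-Hochberg adjustment over 22206 probe sets. The count was 0 (0%) in the 7 tumors, with a smallest adjusted p of 0.989, and 0 (0%) without shPC28 replicate 4, with a smallest adjusted p of 0.998. With shPC28 replicate 2 left out as well, 1 probe set passed, that of Scnn1a (adjusted p = 0.0141). Scnn1a was 8.74, 4.27, 9.07 and 5.40 log2 in shPC28 tumors 1 to 4. The tumors left out were thus those in which it was lowest among shPC28 tumors, so this call rests on their removal. Before adjustment, 963 probe sets (4.34%) had a p below 0.05. Of these, 450 were higher in shPC28 tumors (2.03%) and 513 were lower (2.31%). After each array was centred on its median the same count was 295 higher and 716 lower. Without replicate 4 the count was 823 (3.71%), with 415 higher (1.87%) and 408 lower (1.84%). The genes that follow did not pass the adjusted threshold with the 7 tumors or without replicate 4, and their values describe these tumors.

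The size of the measured differences was limited for most probe sets, counting also dim ones, whose signal may say little about their transcript. A log2 difference of 1 is a doubling of signal, and differences are shPC28 minus shPC25 throughout. Between their 5th and 95th percentiles the differences ran from -0.44 to 0.48 log2. The 95% interval of the difference lay within 1 log2 of 0 for 17884 probe sets (80.5%) and, without replicate 4, for 16881 (76%). The remaining probe sets leave room for a difference of 1 log2 or more that these tumors could not resolve. Differences of 1 log2 or more were measured at 141 probe sets, 114 higher and 27 lower, and at 136 without replicate 4, 91 higher and 45 lower. Both sets shared 75 probe sets with the same sign, 55 higher and 20 lower. Leaving out shPC25 replicate 1 in place of shPC28 replicate 4 raised the count to 346. The largest positive difference was that of Scnn1a, the alpha subunit of the epithelial sodium channel, at 2.53 log2, and the largest negative one, at -2.15 log2, was that of TC0100003096.mm.2, a probe set with no gene symbol.

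**Figure D1:**
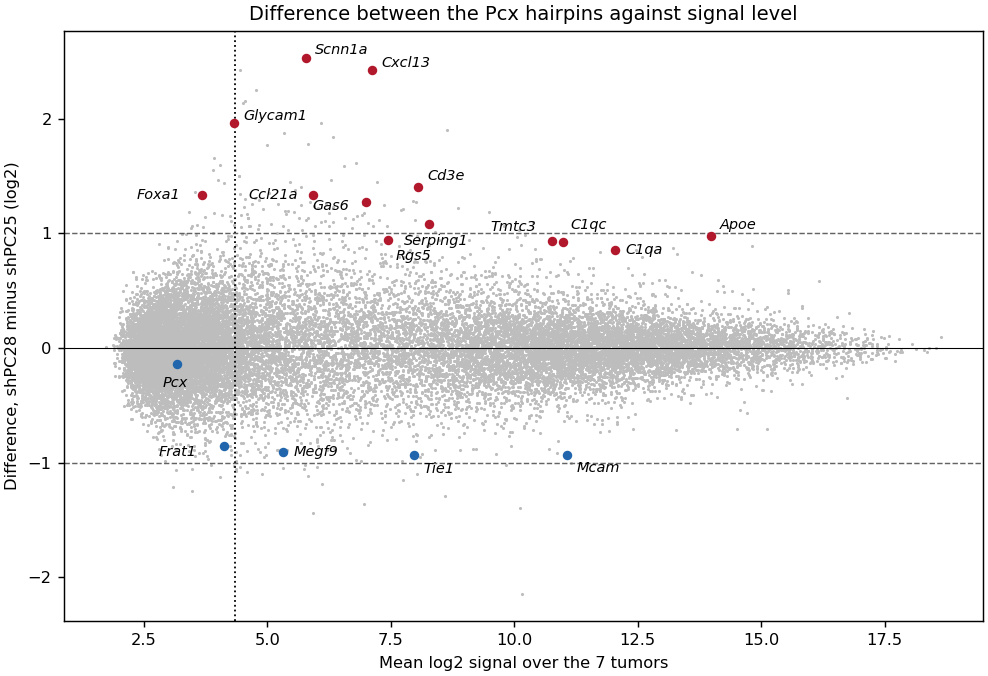
Difference of group means (shPC28 minus shPC25, log2) against the mean log2 signal over the 7 tumors, 1 grey point per probe set, with named genes in red (higher in shPC28) or blue (lower). Dashed lines mark 1 log2 either way, and the dotted line at 4.34 is the level below which 95% of olfactory receptor probe sets lay. Wide differences are mostly at low and middle signal, and no point passed the adjusted threshold.

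The arrays did not group by hairpin. Correlations of log2 signal over all probe sets were 0.9886 to 0.9934 within shPC28 (6 pairs) and 0.989 to 0.9924 within shPC25 (3 pairs). Between the hairpins they were 0.9886 to 0.9936 (12 pairs). Along the first principal component (24.4% of the variance) shPC25 replicate 2, at -56.5, lay apart from all other tumors. The second held 21.9%, with shPC28 replicate 4 at 41.9 and shPC28 replicate 1 at -43.3, so tumors of 1 hairpin lay at both of its ends. Single tumors also stood apart gene by gene. Replicate 1 of shPC28 was at least 1 log2 above all 6 other tumors at 143 probe sets and replicate 4 at 142, while shPC25 replicate 2 was that far above the others at 101 and below them at 123.

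**Figure D2:**
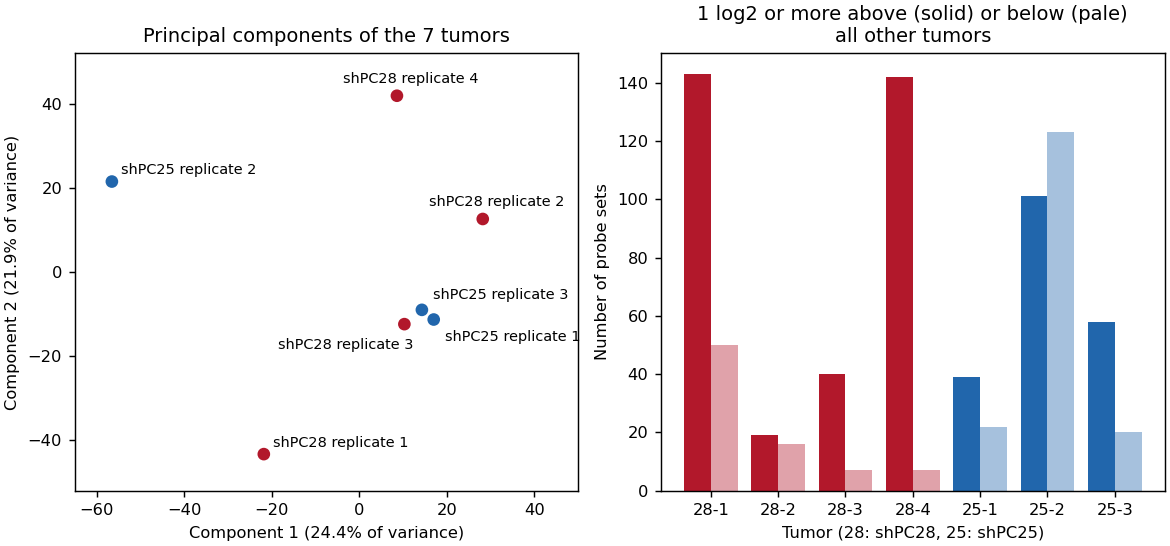
Left, the 7 tumors on the first and second principal components of log2 signal (shPC28 red, shPC25 blue). Right, the number of probe sets at which a tumor lay 1 log2 or more above (solid) or below (pale) all other tumors. The tumors spread without a split by hairpin, and shPC28 replicates 1 and 4 and shPC25 replicate 2 hold the tallest bars.

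Signal from olfactory receptor genes, which serve smell and are not thought to be used in mammary tumors, gives a floor for these arrays. The 1091 olfactory receptor probe sets had a median of 2.95 log2, and 95% of them lay below 4.34. Pcx lay within that range in every tumor. Its log2 signal was 3.76, 2.90, 2.32 and 3.44 in shPC28 tumors 1 to 4, against 3.19, 3.42 and 3.12 in shPC25 tumors 1 to 3. The shPC25 values lay inside the range of the shPC28 values. The means were 3.10 ± 0.63 (SD, n = 4) and 3.24 ± 0.16 (SD, n = 3), a difference of -0.14 ± 0.32 log2 (SE, 95% interval -0.88 to 0.61). An exact two-sided permutation test over all 35 splits gave p = 0.8, and the smallest p it can give is 0.0286. Without replicate 4 the difference was -0.25 ± 0.35 log2 (SE), with an exact permutation p = 0.7 over 20 splits, where the smallest possible p is 0.1. Leaving out shPC28 replicate 3 turned the sign, to 0.12 log2. Since 40.8% of olfactory receptor probe sets were at or above the shPC28 mean of Pcx, the array gave no measure of which hairpin left more Pcx transcript.

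Complement genes had the highest median difference of the 41 gene lists in the 7 tumors, with higher signal in shPC28 tumors. Without replicate 4 the lists of erythroid and mammary epithelium genes had higher medians. Complement tags debris, cells and microbes for clearance, and its classical pathway starts when C1q binds, with the proteases C1r and C1s attached. Of 13 measured complement genes, 10 were higher in shPC28 tumors and 3 lower. At an unadjusted p below 0.05, 5 were higher and 1 lower, beside the 2.03% and 2.31% of all probe sets. For 4 of the 13 the shPC28 values all lay above the shPC25 values, beside 2.31% of all probe sets in this direction and 2.68% in the other. The median difference of the list was 0.70 log2, where the median of all probe sets was -8e-04. With 1 tumor left out, the list median ran from 0.46 log2 without shPC25 replicate 2 to 0.88 without shPC25 replicate 1. Without replicate 4, 10 were still higher and the median was 0.47 log2. Of the 13, 3 were then higher at an unadjusted p below 0.05, beside 1.87% of all probe sets. Then 4 did not overlap, beside 4.13% higher and 4.27% lower of all probe sets. The list was written after C1q genes had been seen to differ in these tumors, so its counts are a description.

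The genes of the 3 C1q chains ran together. C1qc was 11.18, 11.47, 11.56 and 11.34 log2 in shPC28 tumors 1 to 4, against 10.85, 10.12 and 10.41 in shPC25 tumors 1 to 3, a difference of 0.93 ± 0.20 (SE, unadjusted p = 0.00178). C1qa was 12.49, 12.46, 12.45 and 12.19 in shPC28 tumors, against 11.77, 10.95 and 11.91 in shPC25 tumors, a difference of 0.85 ± 0.24. C1qb was 12.85, 12.88, 12.77 and 12.84 in shPC28 tumors, against 12.71, 11.16 and 12.08 in shPC25 tumors, a difference of 0.85 ± 0.32. No shPC25 tumor reached the lowest shPC28 tumor at any of these genes, and the shPC25 tumors were the more spread, with C1qb at 11.98 ± 0.78 (SD, n = 3) beside 12.84 ± 0.05 (SD, n = 4) in shPC28. At each of these genes the lowest value was that of shPC25 replicate 2, so the size of the differences leans on that tumor. Without replicate 4 the differences were 0.94 for C1qc, 0.92 for C1qa and 0.85 for C1qb.

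Other complement genes differed in both directions. Serping1, the C1 inhibitor, was 9.72, 8.14, 8.57 and 8.55 log2 in shPC28 tumors, against 7.45, 8.10 and 7.43 in shPC25 tumors, a difference of 1.08 ± 0.37 (SE), or 1.15 without replicate 4. Cfp, or properdin, which stabilizes the alternative pathway's convertase, was 0.70 ± 0.26 higher with 1 shPC25 tumor inside the shPC28 range. C1s1, a protease of the C1 complex, was lower in shPC28 tumors by 0.48 ± 0.20 (difference -0.48), and C1ra, its partner, had a difference of -0.27 ± 0.20. Receptors of the cleaved fragments, C3ar1 and C5ar1, differed by 0.31 ± 0.20 and 0.78 ± 0.35. The decay accelerating factor gene Cd55 had 9.23 log2 in shPC28 replicate 4, against 5.58 to 6.99 in shPC25 tumors, and its difference of 1.26 was 0.67 without that tumor.

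The mean of the complement list was 10.50, 10.45, 10.42 and 10.84 log2 in shPC28 tumors 1 to 4, against 10.24, 9.88 and 10.01 in shPC25 tumors 1 to 3. The groups did not overlap, and they did not in any alternative that was run. It was 1 of 3 lists of 41 for which this held in the 7 tumors. The second was the list of nerve and Schwann cells, of whose 7 measured members only 1 lay above the olfactory receptor level. The third, naive and memory T homing genes, had a median difference of 0.37 log2 that was 0.04 without replicate 4.

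**Figure D3:**
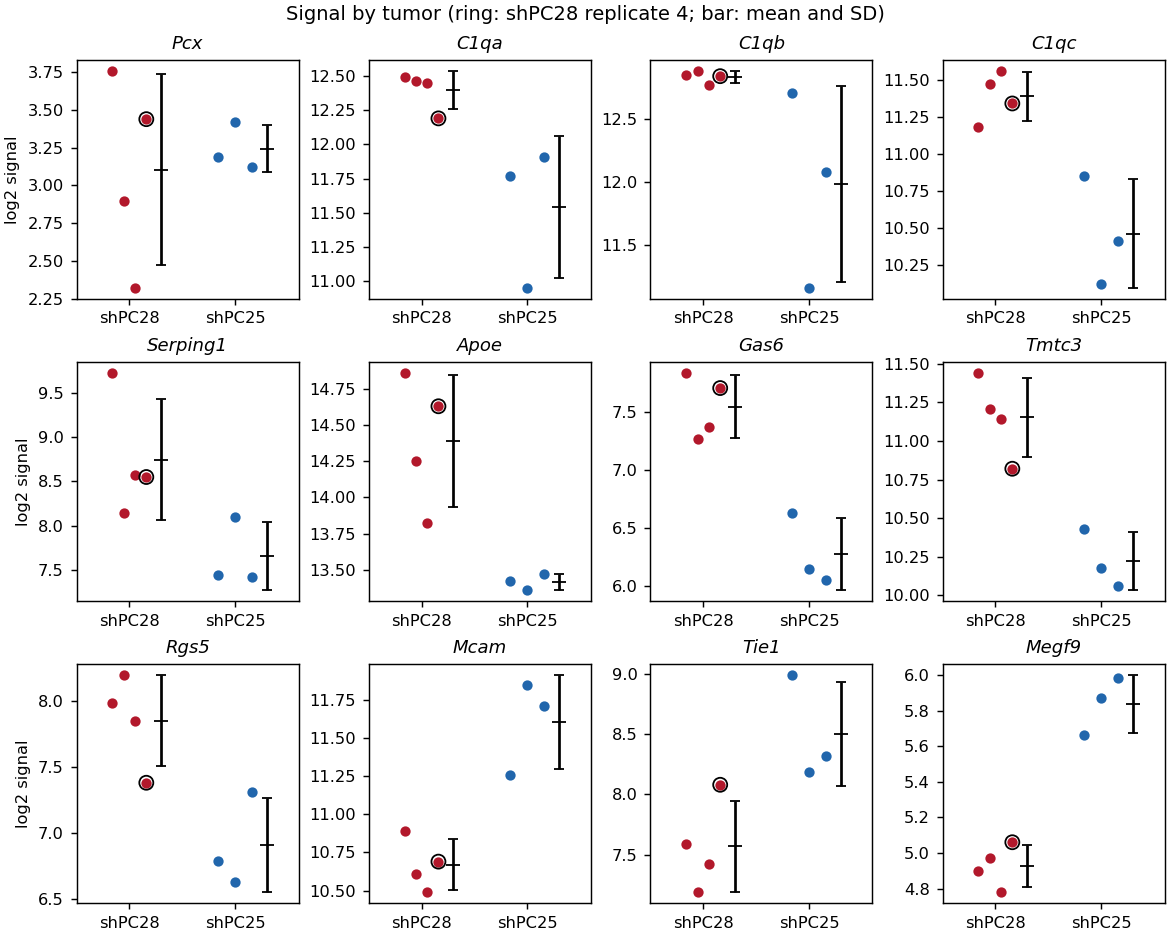
Log2 signal of 12 genes in each tumor, shPC28 (red, 4 tumors) left of shPC25 (blue, 3 tumors), with the mean and SD as black bars and shPC28 replicate 4 ringed. Pcx overlaps between the groups, C1qa, C1qb, C1qc, Serping1, Apoe, Gas6, Tmtc3 and Rgs5 are higher in every shPC28 tumor, and Mcam, Tie1 and Megf9 are lower.

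Macrophage genes were higher in shPC28 tumors at 15 of 18 measured members, with a median of 0.35 log2. Of the 18, 2 were higher at an unadjusted p below 0.05, beside 2.03% of all probe sets, and 3 were higher without overlap, beside 2.31%. Without replicate 4, 13 were higher with a median of 0.31 log2, 1 at an unadjusted p below 0.05 (beside 1.87%) and 3 without overlap (beside 4.13%). Apoe, a lipid carrier that tissue macrophages make, was 14.86, 14.25, 13.82 and 14.63 log2 in shPC28 tumors, against 13.42, 13.36 and 13.47 in shPC25 tumors, a difference of 0.97 ± 0.25 (SE). The lysozyme gene Lyz2 was 14.53, 14.24, 14.05 and 14.70 in shPC28 tumors, against 13.35, 14.02 and 14.00 in shPC25 tumors, so the groups nearly met. Fcgr3, an Fc gamma receptor, did not overlap either, at a difference of 0.35 ± 0.18. Adgre1, which encodes the macrophage marker F4/80, was 11.00, 11.52, 11.80 and 11.91 in shPC28 tumors, against 11.27, 10.14 and 11.32 in shPC25 tumors, and overlapped. Arg1, an enzyme of alternatively activated macrophages, was 12.99, 6.51, 9.40 and 8.53 in shPC28 tumors, against 10.15, 10.05 and 7.92 in shPC25 tumors, so that shPC28 tumors held both its highest and its lowest value.

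Gas6 had the second smallest p among genes higher in shPC28 tumors. It encodes a bridging ligand that binds phosphatidylserine on dying cells and activates the receptors Tyro3, Axl and Mertk. Gas6 was 7.84, 7.27, 7.37 and 7.71 log2 in shPC28 tumors 1 to 4, against 6.63, 6.15 and 6.05 in shPC25 tumors 1 to 3. The difference was 1.27 ± 0.21 (SE, 95% interval 0.78 to 1.76, unadjusted p = 0.00032, adjusted p = 0.989 in limma), and 1.22 ± 0.24 without replicate 4. Gpr34, a receptor for lysophosphatidylserine, was 6.44, 6.36, 6.35 and 7.72 in shPC28 tumors, against 6.21, 5.63 and 4.55 in shPC25 tumors, a difference of 1.25 ± 0.46 that was 0.92 without replicate 4.

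Genes of lymphocytes and lymph nodes depended on shPC28 replicate 4. Glycam1, a mucin of the high endothelial venules of lymph nodes, was 3.20, 3.20, 3.13 and 11.13 log2 in shPC28 tumors 1 to 4, against 2.80, 3.42 and 3.39 in shPC25 tumors. Ccl21a, a chemokine that guides T cells into lymph nodes, was 5.59, 4.93, 4.61 and 10.85 in shPC28 tumors, against 5.01, 5.17 and 5.31 in shPC25 tumors. Replicate 4 alone was high at both genes, and without it the differences were -0.03 for Glycam1 and -0.12 for Ccl21a. Over the 13 lymph node genes the median difference of 0.20 log2 was -0.03 without replicate 4. The 15 B and plasma cell genes behaved likewise, with 14 higher and a median of 0.45 log2 in the 7 tumors and 7 higher and a median of -0.06 log2 without replicate 4. Ms4a1, which encodes CD20, was 2.00 to 2.43 in shPC28 tumors 1 to 3, 6.69 in replicate 4 and 2.39 to 2.70 in shPC25 tumors.

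Some lymphoid genes, named because their groups did not overlap, still differed between the other 3 shPC28 tumors and the shPC25 tumors. Cxcl13, a chemokine that attracts B cells, was 6.69, 7.59, 6.89 and 11.45 log2 in shPC28 tumors 1 to 4, against 5.28, 5.78 and 6.14 in shPC25 tumors 1 to 3. The groups did not overlap, with a difference of 2.42 ± 1.05 (SE) in the 7 tumors and 1.32 ± 0.31 (unadjusted p = 0.00347) without replicate 4. Cd3e, a chain of the T cell receptor complex, was 8.33, 8.09, 8.11 and 10.07 in shPC28 tumors, against 7.98, 6.77 and 6.98 in shPC25 tumors, a difference of 1.41 that was 0.93 without replicate 4. Rasgrp2, a guanine nucleotide exchange factor of T cells and platelets, was 5.19, 5.83, 5.49 and 6.54 in shPC28 tumors, against 4.84, 4.33 and 4.34 in shPC25 tumors. Tox, a transcription factor of developing and chronically stimulated T cells, was 5.85, 6.80, 6.22 and 7.0 in shPC28 tumors, against 5.79, 4.29 and 5.61 in shPC25 tumors. The differences were 1.26 for Rasgrp2 and 1.24 for Tox, and 1.00 and 1.06 without replicate 4.

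Over the 20 genes of T cells and cytotoxic effectors the median difference was 0.42 log2, with 16 higher, and 0.21 log2 without replicate 4, with 13 higher. Of the 20, 2 were higher at an unadjusted p below 0.05 (beside 2.03% of all probe sets). Higher without overlap were 2 (beside 2.31%). Without replicate 4, 1 was higher (beside 1.87%) and 1 lower (beside 1.84%) at that p. Groups then did not overlap for 2 higher (beside 4.13%) and 1 lower (beside 4.27%). The study's T cell markers overlapped between the hairpins. Cd8a differed by 0.74 ± 0.45 log2 (SE) and by 0.37 ± 0.33 without replicate 4, Cd4 by 0.64 ± 0.40 and 0.29 ± 0.26, and Cd8b1 by 0.44 ± 0.73 and -0.29 ± 0.33. The list also holds members with lower means in shPC28 tumors. Prf1, or perforin, was 7.95, 9.02, 8.61 and 9.77 in shPC28 tumors, against 9.20, 10.58 and 9.38 in shPC25 tumors, a difference of -0.88 that was -1.19 without replicate 4, where the groups no longer overlapped. In the 7 tumors its groups overlapped and its unadjusted p was 0.096. The granzyme gene Gzma had a difference of -0.70 ± 0.46, with overlap. Il18r1, a chain of the interleukin 18 receptor, was 7.0, 6.15, 6.24 and 5.68 in shPC28 tumors and 5.16, 5.16 and 5.14 in shPC25 tumors, a difference of 1.11 ± 0.28, or 1.31 without replicate 4.

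**Figure D4:**
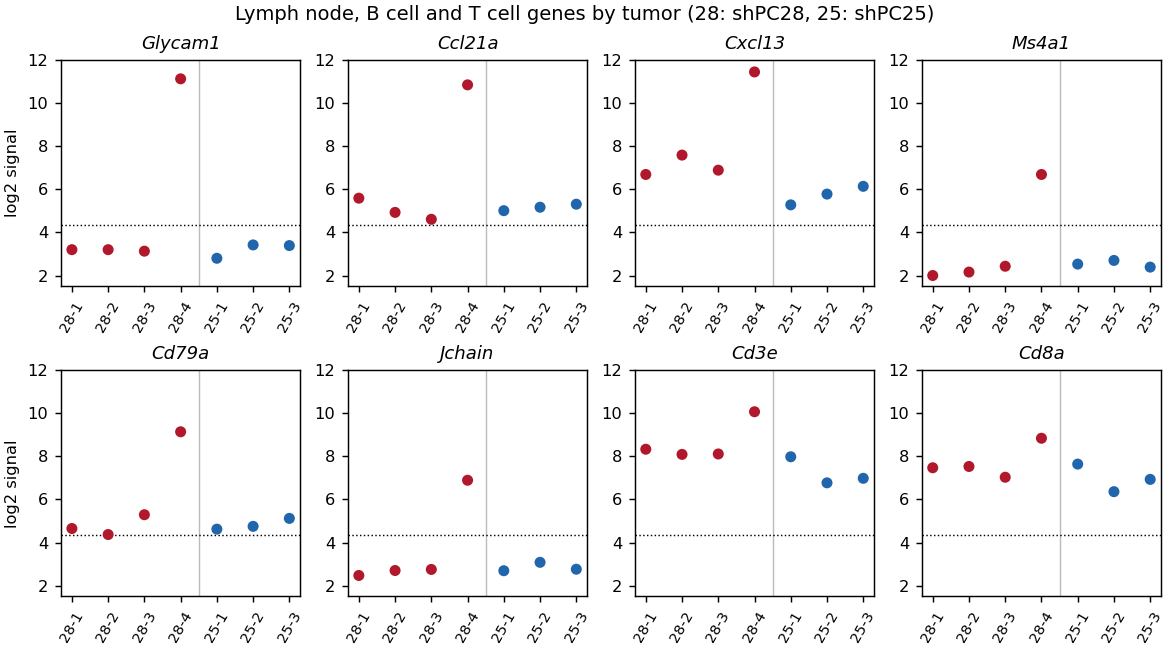
Log2 signal of 8 lymph node, B cell and T cell genes in shPC28 tumors 1 to 4 (red, 28-1 to 28-4) and shPC25 tumors 1 to 3 (blue, 25-1 to 25-3), with the olfactory receptor level of 4.34 dotted. Glycam1, Ccl21a, Ms4a1, Cd79a and Jchain are high in shPC28 replicate 4 alone, while Cxcl13 is also higher in the other shPC28 tumors than in the shPC25 tumors.

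The cytokine genes Il10 and Il17f had lower means in shPC28 tumors. Il10, which damps inflammation, was 5.35, 5.67, 5.22 and 6.39 log2 in shPC28 tumors 1 to 4, against 6.63, 6.29 and 6.45 in shPC25 tumors 1 to 3. Replicate 4 lay inside the shPC25 range, and the difference of -0.80 ± 0.28 (SE) was -1.04 ± 0.20 without it (unadjusted p = 9.2e-04). Il17f was 2.69, 2.44, 2.52 and 3.09 in shPC28 tumors, against 3.53, 4.12 and 3.59 in shPC25 tumors, without overlap but below the olfactory receptor level in every tumor. These were the 2 members at an unadjusted p below 0.05 among 12 measured genes of CD4 helper and regulatory T cells, beside 2.31% of all probe sets lower in shPC28 tumors. The median difference of the list was -0.12 log2, and -0.06 without replicate 4, and it turned to 0.17 without shPC28 replicate 1 and to 0.12 without shPC25 replicate 2.

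Antigen presentation genes of MHC class II were higher in shPC28 tumors at 10 of 10 members, with a median of 0.58 log2, though none had an unadjusted p below 0.05 and every member overlapped. Without replicate 4, 9 were higher with a median of 0.40 log2. Of the 10, 1 was then higher at an unadjusted p below 0.05, H2-Ob, beside 1.87% of all probe sets. Without shPC25 replicate 2 the median was 0.29 log2. Mean signal of the list was 9.79, 10.88, 9.92 and 11.12 in shPC28 tumors, against 10.13, 9.25 and 9.96 in shPC25 tumors. The list means thus overlapped, and the list leans on shPC28 replicates 2 and 4 and on shPC25 replicate 2. H2-DMa, part of the complex that loads peptides, was 9.57, 10.34, 9.30 and 9.72 log2 in shPC28 tumors, against 9.61, 8.01 and 8.95 in shPC25 tumors. Of 18 dendritic cell genes, 15 were higher with a median of 0.40 log2, and 12 with a median of 0.15 log2 without replicate 4. At an unadjusted p below 0.05, 3 were higher (beside 2.03% of all probe sets), and without replicate 4 the count was 1 higher, Siglech (beside 1.87%), and 1 lower, Xcr1 (beside 1.84%). Siglech, a lectin of plasmacytoid dendritic cells, was 5.97, 6.28, 6.18 and 6.86 in shPC28 tumors, against 5.27, 5.80 and 5.77 in shPC25 tumors. Sirpa, an inhibitory receptor of myeloid cells that binds CD47, and Cd83, a marker of mature dendritic cells, also did not overlap, at differences of 0.50 ± 0.18 and 0.68 ± 0.26. Without replicate 4 the difference was 0.53 for Siglech, 0.42 for Sirpa and 0.55 for Cd83. For Cd83 this was the brighter of its probe sets, and the other overlapped. Xcr1, a chemokine receptor of cross-presenting dendritic cells, was 3.72, 4.19, 4.22 and 5.99 in shPC28 tumors, against 4.75, 4.83 and 4.29 in shPC25 tumors. Its difference of -0.09 ± 0.49 was -0.58 ± 0.23 without replicate 4, where the groups did not overlap.

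Mast cell and eosinophil genes gave 2 members at an unadjusted p below 0.05, beside 2.03% of all probe sets, in a list of 13 with a median of 0.03 log2. Cpa3, carboxypeptidase A3 of mast cells, was 7.32, 7.41, 6.48 and 7.27 log2 in shPC28 tumors, against 6.66, 4.48 and 4.71 in shPC25 tumors, a difference of 1.84 ± 0.51 (SE). It was high in shPC25 replicate 1 as well, which reached the shPC28 range. Ccr3, the eotaxin receptor, differed by 0.84 ± 0.34. Without replicate 4 Cpa3 differed by 1.79 and Ccr3 by 0.68, and 1 of the 13 was higher at an unadjusted p below 0.05 (beside 1.87%). Ccl11, which encodes eotaxin, differed by 0.58 ± 0.23 without overlap. The chemokine Cxcl16 did not overlap, at 0.48 ± 0.20, and Ccl8, a monocyte attractant, differed by 0.84 ± 0.33 with overlap. Without replicate 4 the differences were 0.39 for Ccl11, 0.44 for Cxcl16 and 0.71 for Ccl8. Over 29 chemokines 20 were higher with a median of 0.37 log2, and 16 higher and 13 lower with a median of 0.04 log2 without replicate 4. The median was also near 0, at -0.005 log2, without shPC25 replicate 1. The 3 members higher at an unadjusted p below 0.05 in the 7 tumors (beside 2.03% of all probe sets) were not so without replicate 4, where Xcl1, a chemokine of NK and T cells, was lower (-0.63 ± 0.24, 1 of 29 beside 1.84%). The 15 neutrophil genes had a median of 0.00 log2 and, without replicate 4, of -0.17 log2 with 10 lower. Leaving out shPC25 replicate 1 gave -0.34 and leaving out shPC25 replicate 2 gave 0.44. S100a8 was 14.05 in shPC25 replicate 2, against 9.37 and 10.49 in the other shPC25 tumors and 9.72 to 11.36 in shPC28 tumors.

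Interferon-stimulated genes, which the cell also switches on when it senses double-stranded RNA, were lower in shPC28 tumors at 23 of 29 members, with a median of -0.17 log2 and no member at an unadjusted p below 0.05 in either direction. Without replicate 4, 25 were lower with a median of -0.37 log2, and 2 were lower at an unadjusted p below 0.05, beside 1.84% of all probe sets. The sign turned without shPC28 replicate 1, where the median was 0.05 log2. Mean signal of the list was 10.67, 11.69, 11.13 and 12.09 in shPC28 tumors, against 11.41, 11.76 and 11.45 in shPC25 tumors, so shPC28 tumors held the lowest and the highest. Oas1a, an enzyme activated by double-stranded RNA, was 9.43, 10.26, 10.06 and 11.25 in shPC28 tumors, against 10.70, 11.16 and 10.67 in shPC25 tumors. Isg15, a ubiquitin-like protein, had a difference of -0.61 ± 0.45 (SE), and Dhx58, a helicase that regulates RNA sensing, of -0.46 ± 0.39. The 16 genes of double-stranded RNA sensing and small RNA silencing had a median of -0.15 log2 with 11 lower, and -0.23 without replicate 4, and the median turned to 0.02 without shPC25 replicate 2.

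Genes of vessel walls differed in both directions. Mcam, or CD146, an adhesion molecule of endothelium and pericytes that some tumor cells also carry, was 10.89, 10.61, 10.49 and 10.69 log2 in shPC28 tumors 1 to 4, against 11.26, 11.85 and 11.71 in shPC25 tumors 1 to 3. The difference was -0.94 ± 0.19 (SE, unadjusted p = 0.00108) and -0.94 ± 0.22 without replicate 4. Tie1, an endothelial receptor tyrosine kinase, was 7.59, 7.19, 7.42 and 8.08 in shPC28 tumors, against 8.99, 8.19 and 8.32 in shPC25 tumors, a difference of -0.93 ± 0.27. Rgs5, a G protein regulator of pericytes, ran the other way, at 7.98, 8.19, 7.85 and 7.38 in shPC28 tumors, against 6.79, 6.63 and 7.31 in shPC25 tumors. None of these genes overlapped between the hairpins. Tie1 differed by -1.10 without replicate 4, and Rgs5 by 0.94 in the 7 tumors and 1.10 without that tumor.

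The lists that hold these genes had medians nearer 0. Over 13 endothelial genes 6 were higher and 7 lower, with a median of -0.04 log2 (-0.02 without replicate 4), and Tie1 was the only one at an unadjusted p below 0.05, beside 2.31% of all probe sets lower. That median ran from -0.41 without shPC25 replicate 3 to 0.26 without shPC25 replicate 1. Over 12 genes of contractile fibroblasts and pericytes 8 were higher and 4 lower, with a median of 0.17 log2, or 0.24 without replicate 4, and it turned to -0.16 without shPC28 replicate 1. Ramp1, a subunit of the receptor for calcitonin gene-related peptide, was 5.81, 5.70, 5.30 and 5.44 in shPC28 tumors, against 4.55, 4.78 and 4.73 in shPC25 tumors, a difference of 0.88 ± 0.17 (SE), or 0.92 without replicate 4. Ppp1r14a, an inhibitor of myosin phosphatase in smooth muscle, was 4.86, 6.20, 5.22 and 6.07 in shPC28 tumors, against 6.21, 6.88 and 7.23 in shPC25 tumors, so the groups nearly met. Pdgfrb, a growth factor receptor of fibroblasts and pericytes, was 12.38 in shPC25 replicate 2 and differed by -0.92 ± 0.40, with overlap. It was 1 of 16 fibroblast and collagen matrix genes at an unadjusted p below 0.05, beside 2.31% of all probe sets lower, and none was without replicate 4. Of the 16, 10 were higher and 6 lower, with a median of 0.052 log2, or 0.055 without replicate 4. That median turned to -0.22 without shPC28 replicate 1.

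Epithelial genes were mostly dim in these tumors, and 6 of 16 lay above the olfactory receptor level. Krt8 was well above it in every tumor, at 14.10, 14.28, 14.61 and 13.68 log2 in shPC28 tumors, against 14.58, 13.56 and 14.25 in shPC25 tumors. Of the 16 genes 15 were higher in shPC28 tumors, with a median of 0.41 log2, and 15 with a median of 0.50 log2 without replicate 4. Foxa1, a pioneer factor of luminal cells outside the list, was 3.66, 4.48, 3.96 and 4.87 in shPC28 tumors, against 2.89, 2.88 and 2.96 in shPC25 tumors, a difference of 1.33 ± 0.28 (SE), or 1.12 without replicate 4. Its shPC25 values and part of its shPC28 values lay at the background level. Pgr, the progesterone receptor, was 2.49 to 4.12 in all tumors. The simple keratin gene Krt18 was 3.55, 5.78, 5.68 and 6.26 in shPC28 tumors, against 4.33, 3.26 and 4.43 in shPC25 tumors. Krt19 was 2.73, 5.60, 5.30 and 6.38 in shPC28 tumors, against 3.96, 2.83 and 3.56 in shPC25 tumors. Both were low in shPC28 replicate 1, and both overlapped between the hairpins. Cldn4, a tight junction claudin, differed by 1.34 ± 0.54 with the same tumor inside the shPC25 range.

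The 22 genes of pyruvate and lactate handling had a median difference of 0.06 log2 with and without replicate 4, and none had an unadjusted p below 0.05. Ldha, which makes lactate from pyruvate, was 17.02, 16.76, 17.0 and 16.81 log2 in shPC28 tumors, against 16.96, 16.87 and 17.02 in shPC25 tumors, with a 95% interval of the difference of -0.39 to 0.28. The lactate transporters Slc16a1 and Slc16a3 had intervals of -0.38 to 0.25 and -0.22 to 0.58. Hif1a, the alpha subunit of a hypoxia-inducible transcription factor, had an interval of -0.42 to 0.45, Mki67, a proliferation marker, of -0.35 to 0.31, and Cd274, which encodes PD-L1, of -0.65 to 0.35. For these genes a doubling between the hairpins lay outside the interval. Of the pyruvate and lactate genes, it lay inside the interval for Me1, the cytosolic malic enzyme (-1.37 to 2.04), Pdk2, a pyruvate dehydrogenase kinase (-0.66 to 1.49), and Pck2, mitochondrial phosphoenolpyruvate carboxykinase (-0.09 to 1.04). Medians were 0.09 log2 over 18 TCA cycle genes, 0.00 over 18 hypoxia genes, 0.00 over 22 respiratory chain genes and 0.04 over 21 cell cycle genes. Without replicate 4 they were 0.10, 0.10, -0.03 and 0.02. With any 1 tumor left out, the medians of these lists and of the pyruvate list stayed between -0.10 and 0.18 log2, with signs that turned.

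Few members of these lists and of the glycolysis list had an unadjusted p below 0.05. Lower in shPC28 tumors were 1 of 18 TCA cycle genes and 1 of 14 glycolysis genes, beside 2.31% of all probe sets. Higher was 1 of 21 cell cycle genes, beside 2.03%. Without replicate 4 the counts were 0, 1 and 1, beside 1.84% lower and 1.87% higher. The 14 glycolysis genes had a median difference of -0.005 log2, and of 0.04 without replicate 4. Fh1, the fumarase of the TCA cycle, was 11.70, 11.44, 11.75 and 11.65 log2 in shPC28 tumors, against 12.04, 11.86 and 12.19 in shPC25 tumors, a difference of -0.40 ± 0.16 (SE). Suclg1, a subunit of succinyl-CoA ligase, also did not overlap, at -0.25 ± 0.14 (unadjusted p = 0.12 in limma). Thus 2 of 18 TCA cycle genes were lower without overlap, with and without replicate 4 (beside 2.68% and 4.27% of all probe sets). Without that tumor Fh1 differed by -0.40 (unadjusted p = 0.062 in limma) and Suclg1 by -0.21. Pfkfb4, which sets fructose 2,6-bisphosphate, was 8.60, 8.32, 8.97 and 8.64 in shPC28 tumors, against 9.07, 9.02 and 9.39 in shPC25 tumors, a difference of -0.53 ± 0.19. Rrm2, a subunit of ribonucleotide reductase, was 14.44, 14.37, 14.46 and 14.57 in shPC28 tumors, against 14.24, 13.57 and 13.94 in shPC25 tumors, a difference of 0.54 ± 0.19. Pck2, which uses the oxaloacetate that pyruvate carboxylase makes, overlapped at 0.47 ± 0.25 (unadjusted p = 0.091 in limma). Without replicate 4 the differences were -0.53 for Pfkfb4, 0.51 for Rrm2 and 0.58 for Pck2.

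Several genes of smallest p belong to no list, and they were chosen by that p. Tmtc3, a mannosyltransferase that modifies cadherins, was 11.44, 11.21, 11.14 and 10.82 log2 in shPC28 tumors 1 to 4, against 10.43, 10.18 and 10.06 in shPC25 tumors 1 to 3. Its difference of 0.93 ± 0.19 (SE) was 1.04 ± 0.18 without replicate 4, where its unadjusted p of 6.7e-04 was the smallest of all. Megf9, a transmembrane protein with EGF-like domains, was 4.90, 4.97, 4.78 and 5.06 in shPC28 tumors, against 5.66, 5.87 and 5.98 in shPC25 tumors, a difference of -0.91 ± 0.15. Haus4, a subunit of the augmin complex of the spindle, was 9.45, 9.36, 9.48 and 9.21 in shPC28 tumors, against 10.08, 10.06 and 9.97 in shPC25 tumors, a difference of -0.66 ± 0.14. Fam167b was 6.27, 5.93, 5.87 and 5.91 in shPC28 tumors, against 6.74, 6.84 and 6.82 in shPC25 tumors. Prrg1, a transmembrane protein with a Gla domain, and Iqcb1, a ciliary protein, did not overlap, at -0.74 ± 0.20 and -0.66 ± 0.20. Without replicate 4 the differences were -0.95 for Megf9, -0.61 for Haus4, -0.87 for Prrg1 and -0.80 for Iqcb1.

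The genes of smallest p were often dim. Of the 10 of smallest p among those higher in shPC28 tumors, 4 lay above the olfactory receptor level, and of the 10 lower, 6 did. Rasef, a Rab-like GTPase, had the smallest p among the higher genes, with 3.93, 4.28, 4.03 and 4.33 log2 in shPC28 tumors, against 3.24, 2.88 and 3.15 in shPC25 tumors. Frat1, a regulator of Wnt signaling that binds GSK3, had the smallest p of all in the 7 tumors (2.5e-04), at 3.64, 3.83, 3.87 and 3.69 in shPC28 tumors, against 4.60, 4.61 and 4.62 in shPC25 tumors. Cyp24a1, Slc22a14, Igfbp2 and Nlrp12 were also below that level on average and did not overlap. In all, 565 probe sets had an unadjusted p below 0.05 with the same sign with and without replicate 4. Of them, 298 lay above the olfactory receptor level. The fits share every tumor except that replicate, so such agreement between them is largely built in.

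**Figure D5:**
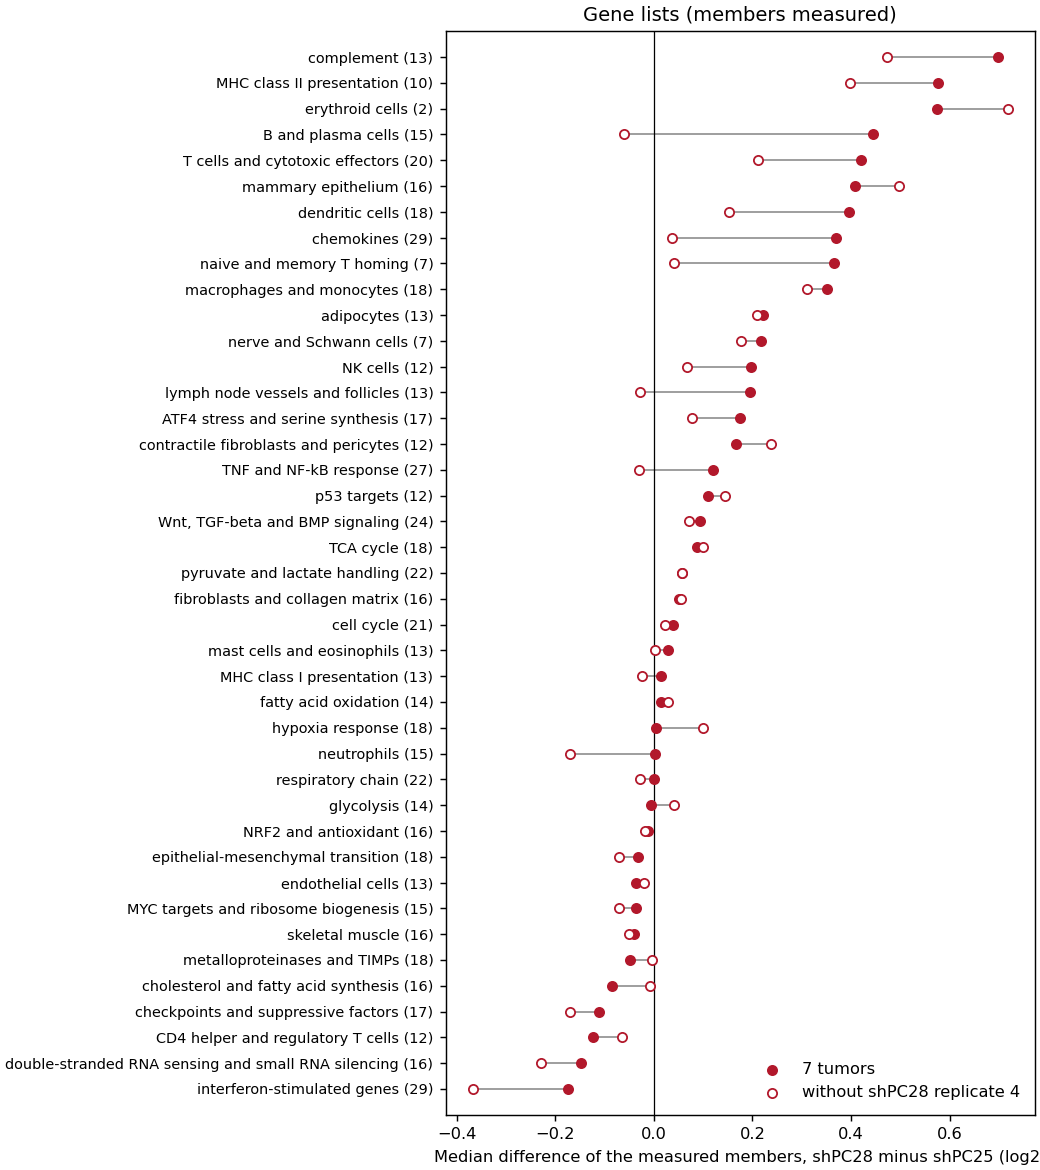
Median difference of the measured members (shPC28 minus shPC25, log2) for 41 gene lists, with the number of members in brackets, in the 7 tumors (filled) and without shPC28 replicate 4 (open). Complement and MHC class II lie at the top in the 7 tumors, B and plasma cells and lymph node genes cross 0 without replicate 4, interferon-stimulated genes lie at the bottom, and most metabolic lists lie near 0.

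Across the 41 lists, which hold 633 measured genes, 29 medians were above 0 and 12 below in the 7 tumors, and 24 were above and 17 below without replicate 4. Without that tumor no list other than the 2 erythroid genes had a median above 0.5 log2. Median centring of the arrays, which moved the median of all probe sets by -0.06 log2, turned the sign of 8 lists with medians near 0 and left the complement median at 0.64 log2.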

How the data were processed

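Whole tumor RNA was labelled with the GeneChip WT PLUS kit and hybridized to mouse Clariom S arrays by the authors, who analysed them in the vendor's Transcriptome Analysis Console with a false discovery rate threshold of 0.05. The deposited values were normalized log2 signals of 22206 probe sets, used unfiltered. Array medians were 5.89 to 6.07. The sources used here do not give the summarization method, background correction or genome build, so no coordinates are printed, and no label gives a batch or scan date. Scanner files were not used. Symbols came from the platform annotation: 19572 probe sets had 1 and 2634 had none. Foxp3 was not matched. The number of arrays limits precision.

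A linear model with 1 mean per hairpin was fitted to the 7 tumors, and again without shPC28 replicate 4, in limma 3.58.1 under R 4.3.3 (lmFit, eBayes, two-sided, Benjamini-Hochberg over all probe sets, unadjusted 95% intervals). The fit was tested on simulated data. Pcx also had an exact permutation test. No 2 arrays held identical values. Nothing says that tumors of a hairpin came from separate transductions, so p-values measure the spread between tumors.

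The members and the 41 gene lists (699 genes, 633 measured by their brightest probe set) were chosen with earlier results of these data known, and they are described by counts and medians without a test. Named genes are Pcx, genes the study's text is about, the 10 of smallest p in each direction in either fit, the 10 largest differences in each direction without overlap, the members of smallest p per list (at most 4), and markers. Genes with only a Gm or Rik symbol were skipped, and Scnn1a, probe set TC0100003096.mm.2 and the genes of the other observations were chosen after their values were seen. Alternatives were leaving out each tumor, quantile normalization, median centring, filters on dim probe sets, a trended robust prior, array weights, the methods' t-test, a fit of all 11 tumors, a replicate block and averaging over the probe sets of a gene.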

Additional observations from a re-analysis of the deposited data

Results flagged for a closer look

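Of 140 items examined in the 4 shPC28 tumors (99 genes and 41 list means), 18 had 1 tumor whose distance to the nearest other tumor was past the 95% critical value of Dixon's ratio for the range. Chance gives such a tumor in about 1 in 20 groups, and the genes share tumors and cell types. Many of the items are lymphoid genes or lists, or genes named for a small p without replicate 4, so how often that tumor appears follows in part from this choice and is not set against chance. Replicate 4 was high for Glycam1 (11.13 log2, next tumor 3.20), Ccl21a (10.85, next 5.59), Cd3e (10.07, next 8.33), H2-Ob (9.51, next 5.35), Gpr34 (7.72, next 6.44), Jchain (6.89, next 2.75), Ms4a1 (6.69, next 2.43) and Aldh1a2 (4.53, next 3.49), and low for C1qa (12.19, next 12.45). It was also high for the mean of the naive and memory T homing list (8.55, next 7.37), of B and plasma cells (7.74, next 5.66) and of lymph node genes (7.18, next 5.32).

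Replicate 1 was high for Fcgr3 (15.02, next 14.62) and Fam167b (6.27, next 5.93) and low for Mmp9 (8.07, next 9.84). Replicate 3 was low for Cpa3 (6.48, next 7.27) and Cxcl9 (12.68, next 13.46) and high for the mean of cholesterol and fatty acid synthesis genes (13.2, next 12.7). The 3 shPC25 tumors are too few for this rule.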

How the results depend on the processing

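In the 7 tumors 0 probe sets passed an adjusted p of 0.05 under every alternative run, in limma or in the methods' t-test. Over these runs the smallest adjusted p was 0.331, and between 457 and 1270 probe sets had an unadjusted p below 0.05. Without shPC28 replicate 4 the leave-one-out counts were 0 to 1. The 1 was Scnn1a (4.57 log2, adjusted p = 0.0141) once shPC28 replicate 2 was left out too. Its signal was lowest among shPC28 tumors in the tumors so removed. The count at an unadjusted p below 0.05, 963 in the 7 tumors, was 638 without the dimmest tercile and 457 without probe sets below the median, where fewer are tested. Of those 963, 46.7% were higher in shPC28 tumors, of the 1011 after median centring 29.2%, and the cause was not tested. The count of differences of 1 log2 or more was 136 to 346 when 1 tumor was left out (222 without shPC28 replicate 1, and 346, 221 and 239 without shPC25 replicates 1, 2 and 3), 53 without probe sets below the median and 20 at 1.5 log2. The number of lists whose tumor means do not overlap was 3 to 8 when 1 tumor was left out (6 without shPC28 replicate 1, 8 and 5 without shPC25 replicates 1 and 2). The interval shares and all other alternatives of these counts kept within 1.5 times.

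Of 99 named genes 83 kept their sign in every alternative and 16 did not. Krt14, Krt16, Lox, Lcn2 and Ccbe1, given under the other observations, were not among the 99, and their signs also turn with some tumors left out. With 1 tumor left out, Pcx ran from -0.36 to 0.12 log2, Arg1 from -1.23 to 0.93, S100a8 from -1.47 to 0.87, Ccl21a from -0.12 to 1.96, Glycam1 from -0.027 to 2.64, Cd79a from -0.06 to 1.53, Jchain from -0.20 to 1.27, Ms4a1 from -0.34 to 1.22, Cd8b1 from -0.29 to 0.85, Hif1a from -0.17 to 0.14, Cd274 from -0.28 to 0.018, Mki67 from -0.067 to 0.035, Xcr1 from -0.58 to 0.18, Me1 from -0.18 to 1.09, Pdk2 from -0.10 to 0.75 and Krt8 from -0.25 to 0.26. Median centring gave -0.04 for Hif1a and -0.02 for Krt8, and array weights -0.057 for Krt8 and 0.021 for Xcr1.

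The replicate block gave 0 calls and 791 probe sets at an unadjusted p below 0.05. Deviations of same-numbered tumors correlated at -0.002, -0.18 and 0.108, so the numbers were not taken to pair the tumors. Replicate 4 of shPC28 has no partner and adds nothing to a blocked difference. With the replicate block the differences were 0.26 for Arg1, -0.12 for Ccl21a, -0.06 for Cd79a, -0.29 for Cd8b1, -0.027 for Glycam1, -0.027 for Hif1a, -0.20 for Jchain, 0.01 for Mki67 and -0.34 for Ms4a1. It turned the sign of 7 list medians and changed no call.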

Other observations

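Many genes ranged widely between tumors of the same hairpin. They were chosen after their values were seen and have no test. The range over the 7 tumors was 2 log2 or more at 1072 probe sets and 4 log2 or more at 68, and of these 68, 6 differed between the hairpin means by 2 log2 or more. A range and a difference of means are unlike measures, so the spread between tumors is not weighed against the hairpin here. Within shPC28 tumors 492 probe sets had a range of 2 log2 or more, and within shPC25 tumors 388.

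Stratified epithelial keratins were such genes. Krt14, a keratin of basal cells, was 4.45, 8.52, 8.76 and 5.10 log2 in shPC28 tumors 1 to 4, against 6.66, 3.92 and 8.51 in shPC25 tumors 1 to 3. Krt16, a keratin of activated keratinocytes, was 5.15, 9.96, 9.32 and 7.36 in shPC28 tumors, against 7.53, 5.26 and 9.40 in shPC25 tumors. Krt17 was 4.57, 8.59, 8.11 and 6.26 in shPC28 tumors, against 4.75, 4.81 and 9.03 in shPC25 tumors. The transporter gene Slc47a1, at 3.80, 7.50, 8.96 and 4.08 in shPC28 tumors, against 4.25, 2.38 and 7.28 in shPC25 tumors, and the water channel gene Aqp3, at 4.12, 7.41, 7.82 and 6.28 in shPC28 tumors, against 4.41, 2.82 and 8.18 in shPC25 tumors, had the same tumors high. These were shPC28 replicates 2 and 3 and shPC25 replicate 3.

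Other genes divided the tumors differently. Lox, which cross-links collagen, was 11.27, 6.24, 9.48 and 7.43 in shPC28 tumors, against 8.84, 8.10 and 6.88 in shPC25 tumors, with shPC28 replicate 1 highest as for Arg1. Lcn2, a neutrophil and epithelial iron-scavenging protein, was 12.84, 13.35, 13.11 and 16.17 in shPC28 tumors, against 11.16, 16.57 and 13.33 in shPC25 tumors. Ccbe1, a factor of lymphatic vessel growth, was 10.09, 6.18, 8.01 and 9.98 in shPC28 tumors, against 5.91, 12.79 and 5.51 in shPC25 tumors. Scnn1a was 8.74, 4.27, 9.07 and 5.40 in shPC28 tumors, against 4.59, 4.14 and 4.29 in shPC25 tumors, so the difference in its means came from shPC28 replicates 1 and 3.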
